A study of Mus musculus with 4 samples.

Results

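The nuclear genome encodes most proteins of the oxidative phosphorylation system, and 94 of these genes were followed here through the cell types of the mouse common bile duct. They were chosen by symbol: every gene whose name starts with Ndufa, Ndufb, Ndufc, Ndufs, Ndufv, Uqcr, Cox4i, Cox5, Cox6, Cox7, Cox8 or Atp5, and the 4 Sdh genes, if its Ensembl identifier was listed for all 4 libraries and it was no pseudogene. The 94 were drawn from 30406 shared genes. They comprised 7 core subunits of complex I, 29 of its accessory subunits, 8 of its assembly factors (Ndufaf genes), 4 subunits of complex II, 8 of complex III, 20 of complex IV, 5 of the catalytic F1 part of complex V, 12 of its membrane part and stalk, and Atp5s, which is no subunit. Usmg5 and 2010107E04Rik, which the other reference calls Atp5md and Atp5mpl, were counted among the membrane subunits of complex V. A second Atp5o identifier and Ndufb1-ps matched by symbol but were listed in 1 of the 2 gene references only and were left out.

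Complexes I and II take electrons from NADH and succinate, complex III passes them to cytochrome c, and complex IV hands them to oxygen. The protons pumped on the way drive complex V, which makes ATP. A few catalytic subunits are encoded by mitochondrial DNA, while the nuclear subunits listed above are made in the cytosol and imported. Several complex IV subunits exist as isoforms from separate genes, with one form in most tissues and another in heart and skeletal muscle, testis, or cells that sense oxygen. Cholangiocytes, the epithelial cells that line bile ducts, modify bile by ion transport, which depends on ATP.

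The samples were 10x Genomics 3′ single-cell libraries of dissected whole ducts: 3 wild-type libraries and 1 library labelled Prom1_BcatGOF, from a mosaic gain of function of Ctnnb1, which encodes beta-catenin. GOF below means that library. All 4 were untreated, and the labels name no construct, strain, age or number of animals for a library. The wild-type libraries held 43737469, 17358894 and 9558637 unique molecular identifiers (UMIs, counted molecules) in 6253, 3270 and 2649 cell barcodes, and the GOF library 113596685 in 10796. A library pair shared between 5 and 19 barcodes. The median share of mitochondrial UMIs per barcode was 10.1%, 11.5% and 14.8% in the wild-type libraries and 2.99% in GOF. In epithelial-like cells Axin2, a target of beta-catenin, stood at 112 CPM in GOF (counts per 1000000 UMIs of the class) against 3.15, 6.98 and 5.40 in wild type, and was called higher (log2 4.13 ± 0.38, adjusted p = 0.004, edgeR). Ctnnb1 itself stood at 272 CPM against 579.6, 554 and 450.0 (-1.31 ± 0.24, adjusted p = 0.024, edgeR); a 3′ count does not show whether a transcript carries the altered allele.

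Cells were assigned to a class by fixed marker genes, and each class is called "-like" for that reason. With at least 20 cells in every library, 7 classes were tested: epithelial-like (5465 GOF cells and 3188, 1574 and 1242 wild-type cells), fibroblast-like (500 and 95, 182, 201), mesothelial-like (318 and 94, 45, 26), blood endothelial-like (111 and 35, 36, 65), lymphatic endothelial-like (85 and 35, 40, 38), macrophage- and monocyte-like (950 and 96, 136, 112) and neutrophil-like (330 and 583, 25, 29). The 10 epithelial markers were all detected in the epithelial-like cells of each library, at a summed level of 13715 CPM in GOF and 13690, 11818 and 10559 in wild type. Their sum was 230.3 and 209, 294 and 384 CPM in macrophage-like cells, and 363 and 289, 604 and 464 in fibroblast-like cells. In mesothelial-like cells it was 4395 and 3663, 4381 and 3103 CPM, and mesothelium expresses some of these keratins itself. The gate is a limit on a score: 108 GOF and 17, 19 and 30 wild-type epithelial-like cells lay close to it. Between 5.24% and 17.0% of the cells of a library passed no gate and enter no comparison.

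The promoters of 76 of the 94 genes were found among RefSeq promoter windows (GRCm38.p6, 250 bases before to 50 after the start), as 81 windows. They were searched on both strands for the letters GCGCANGCG, the core of the site of nuclear respiratory factor 1, and CCGGAAG, the core of ETS-family sites, since both factor families are known for binding such promoters. The 2 motifs share no letters in a given match. GCGCANGCG lay in 23 of the 81 windows (28.4%), against 2053 of all 32851 (6.25%), and CCGGAAG in 19 (23.5%), against 2910 (8.86%). Shown here from 250 bases before to 25 after the start, 5′ to 3′, are Atp5k and Cox6a1, which hold both motifs, and the isoform genes Cox7a1 and Cox7a2, which hold neither; capitals mark the matches. Atp5k lies at chr5:108434375-108434649 (minus strand), Cox6a1 at chr5:115348934-115349208 (minus), Cox7a1 at chr7:30183921-30184195 (plus) and Cox7a2 at chr9:79759829-79760103 (minus).
Atp5k: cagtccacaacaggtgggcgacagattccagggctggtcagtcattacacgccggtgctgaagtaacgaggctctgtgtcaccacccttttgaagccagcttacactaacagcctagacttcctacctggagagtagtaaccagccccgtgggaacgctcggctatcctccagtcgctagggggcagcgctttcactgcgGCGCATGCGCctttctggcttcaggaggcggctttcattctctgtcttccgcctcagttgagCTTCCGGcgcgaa
Cox6a1: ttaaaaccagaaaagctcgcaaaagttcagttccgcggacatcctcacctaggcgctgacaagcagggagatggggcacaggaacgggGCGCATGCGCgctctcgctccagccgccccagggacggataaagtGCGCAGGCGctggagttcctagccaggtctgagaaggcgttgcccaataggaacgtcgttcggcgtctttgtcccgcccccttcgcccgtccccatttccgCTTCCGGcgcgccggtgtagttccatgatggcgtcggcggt
Cox7a1: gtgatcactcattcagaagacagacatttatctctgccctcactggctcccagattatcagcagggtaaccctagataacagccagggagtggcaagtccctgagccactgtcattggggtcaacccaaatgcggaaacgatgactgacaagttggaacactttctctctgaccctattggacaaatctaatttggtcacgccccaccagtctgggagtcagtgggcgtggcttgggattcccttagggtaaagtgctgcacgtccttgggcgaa
Cox7a2: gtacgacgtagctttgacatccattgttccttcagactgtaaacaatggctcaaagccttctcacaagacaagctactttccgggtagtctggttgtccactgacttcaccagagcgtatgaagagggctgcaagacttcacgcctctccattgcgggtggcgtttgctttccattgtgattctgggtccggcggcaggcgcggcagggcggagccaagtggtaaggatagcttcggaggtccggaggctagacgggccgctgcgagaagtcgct
A match describes these letters only. The isoform pair was printed because its members went apart between cell classes, and Atp5k because it lay farther below wild type in GOF epithelial-like cells than any other member but Cox7a1.

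In wild-type epithelial-like cells nearly all subunits were detected at levels that varied little between libraries. Levels are CPM of the class in a library. UMI counts of a 3′ library do not scale with transcript length, but capture and annotation can differ between genes, so the order of levels is a description. Of the 94 genes, 83 exceeded 20 CPM in each wild-type library and 2, Cox8b and Cox8c, were at 0 UMIs. Among members with a wild-type mean over 20 CPM, the highest library stood at 1.18 times the lowest for the median gene. The largest such ratio was 1.98, for Sdhb (205, 324 and 407 CPM).

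In complex IV the highest means were Cox7c at 1601 ± 72.0 CPM, Cox8a at 1499.5 ± 101 and Cox4i1 at 1087 ± 14.7 (SD, n = 3 libraries, here and in this paragraph). In complex III Uqcrh, the hinge protein that docks cytochrome c1, was highest at 1077 ± 137 CPM, and the core proteins Uqcrc1 (218 ± 5.46) and Uqcrc2 (188 ± 4.93) and the Rieske iron-sulphur protein Uqcrfs1 (209 ± 18.6) were lowest. Complex V ran from Atp5e, the epsilon subunit, at 1045 ± 214 CPM to Atp5g3, a gene for the c subunit, at 355 ± 20.3. The complex I core subunits, which carry the flavin and the iron-sulphur clusters, were lower: Ndufs7 was highest at 346 ± 31.0 CPM and Ndufs1 lowest at 46.9 ± 1.34. Among accessory subunits Ndufa7 reached 702 ± 106 CPM and Ndufa9 67.8 ± 5.89. Complex II, which also belongs to the citric acid cycle, had Sdhb, its iron-sulphur subunit, at 312 ± 101 CPM and the flavoprotein Sdha at 138 ± 14.5. Its membrane anchors Sdhd and Sdhc stood at 118 ± 12.1 and 65.5 ± 2.97 CPM. The assembly factors were lowest as a group, from 149 ± 12.1 CPM for Ndufaf8 to 7.07 ± 1.52 for Ndufaf5.

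The summed share of the 94 genes differed between classes, and in each of the 7 tested classes it lay lower in GOF than in every wild-type library. In wild-type epithelial-like cells they made up 3.67%, 3.69% and 3.54% of UMIs, and in GOF 2.62%. Tuft-like cells (4.70%, 4.79% and 4.39%, with 18 cells in wild-type library 3) and smooth muscle- and pericyte-like cells (4.04%, 3.82% and 3.96%, with 8 cells in wild-type library 1) had more. Macrophage-like cells had 2.85%, 3.19% and 2.76%, fibroblast-like cells 2.19%, 2.66% and 2.17%, and neutrophil-like cells 1.64%, 1.91% and 1.95%. The wild-type epithelial-like libraries were all above those of the macrophage-, fibroblast- and neutrophil-like classes. The matching GOF shares were 2.03%, 1.82% and 1.10%, each below all 3 wild-type libraries. Acinar-like cells, 1 in GOF and 10, 2 and 20 in wild type, were too few to compare. These shares carry no test. A lower share can come, among other things, from fewer transcripts of these genes per cell or from more of the others. UMI sums cannot tell such sources apart, and the mix of cells within a class was not compared.

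**Figure D1:**
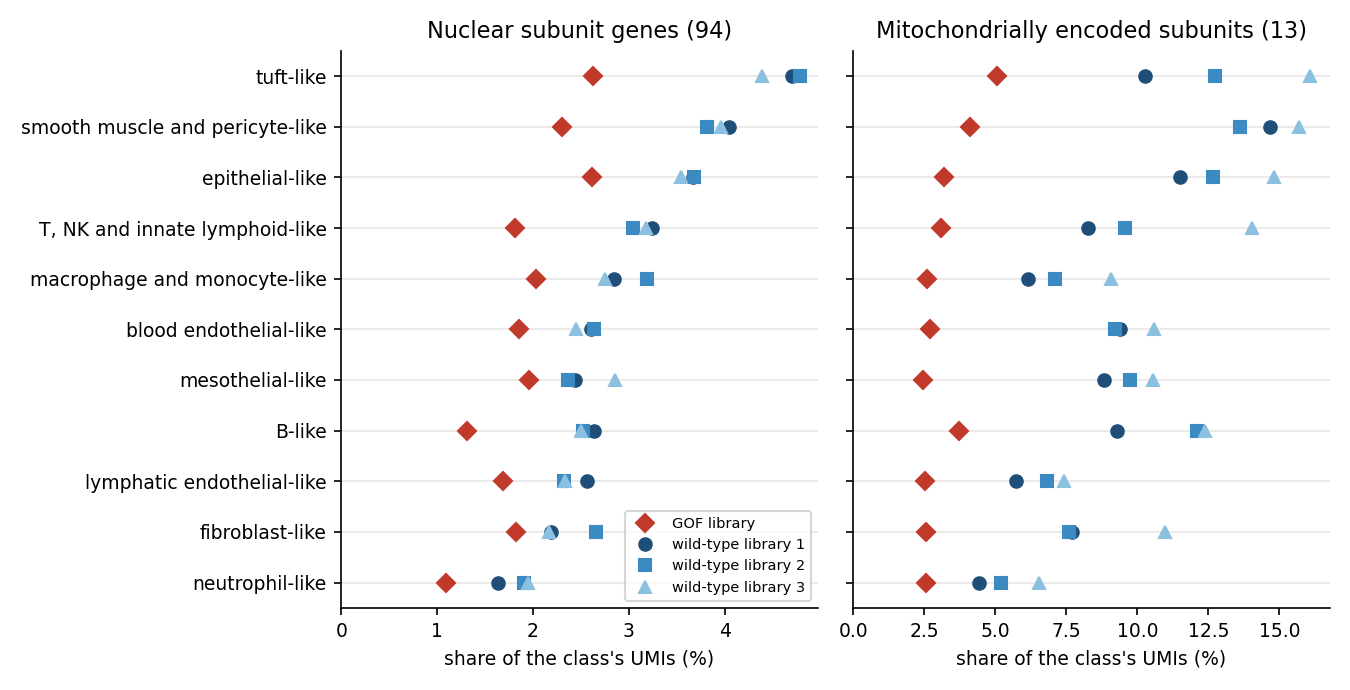
Share of a class's UMIs (x axis, %) taken by the 94 nuclear genes (left) and by the 13 mitochondrially encoded subunits (right) in 11 marker-gated classes (rows); each symbol is 1 library. The GOF diamonds lie to the left of the wild-type symbols in all rows of both panels; for epithelial-like cells at 2.62% against 3.54% to 3.69% on the left and at 3.19% against 11.5% to 14.8% on the right.

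Among the 7 tested wild-type classes, epithelial-like cells had the highest subunit levels relative to the others. One model over the 7 classes, with the library as a block, compared each class with the mean of the other 6 (edgeR quasi-likelihood test, adjusted p under 0.05 over all 7184 genes tested). In epithelial-like cells 69 of 84 tested members were higher and 0 lower, with a median log2 difference of 0.82. Of all genes tested, 26.5% were called higher in this contrast and the median was 0.16. Members of all groups took part: 8 of 8 in complex III, 12 of 14 in complex IV, 4 of 4 in complex II, 6 of 7 core and 22 of 29 accessory subunits of complex I, 4 of 5 F1 and 10 of 12 membrane and stalk subunits of complex V, and 3 of 5 assembly factors.

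The largest differences that do not rest on a class without UMIs were those of Ndufa9 (log2 1.38 ± 0.22 SE), Ndufa12 (1.36 ± 0.19), Uqcrfs1 (1.32 ± 0.21) and Ndufa5 (1.32 ± 0.18), with adjusted p of 1.3e-05, 2.4e-06, 1.3e-05 and 1e-06 (edgeR). The Ndufa genes among them encode accessory subunits of complex I. Uqcrfs1 stood at 226, 213 and 189 CPM in epithelial-like cells, 104, 149.7 and 94.2 in macrophage-like cells and 75.5, 93.6 and 108 in fibroblast-like cells, so its epithelial-like libraries did not overlap those of either class. Leaving out wild-type library 3 lowered the count of higher members to 44, and 42 of the 69 calls were kept in every alternative run. Other gene groups were also higher in this contrast: cytosolic ribosomal protein genes in 69 of 84 (median 0.67), mitochondrially encoded subunits in 13 of 13 (0.88) and mitochondrial ribosomal protein genes in 38 of 68 (0.66).

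Against fibroblast-like cells alone, 46 of 84 members were higher in epithelial-like cells and 1 was lower; of all genes, 16.0% were higher and 19.2% lower. The median log2 difference was 0.74 for members and 0.03 for all genes. Complex III again had 8 of 8 members higher, complex IV 10 of 14, the F1 part of complex V 4 of 5 and its membrane part and stalk 6 of 12, complex II 3 of 4, the accessory subunits 13 of 29, the core 2 of 7, and the assembly factors 0 of 5. Uqcrh stood at 994, 1002 and 1235 CPM in epithelial-like and 466, 411 and 519 in fibroblast-like cells, without overlap (1.29 ± 0.25, adjusted p = 0.00014, edgeR). Cox4i1, the common form of the regulatory subunit 4, stood at 1081, 1077 and 1104 against 488, 554 and 511 CPM (1.13 ± 0.26, adjusted p = 0.00097, edgeR). Sdha stood at 149, 144 and 122 against 80.5, 62.7 and 63.2 CPM (1.08 ± 0.26, adjusted p = 0.0018, edgeR). The epithelial-like libraries were again all higher. Leaving out wild-type library 1 gave 24 calls and leaving out library 3 gave 8, and Cox4i1, Cox7a1, Ndufs3, Ndufs8, Sdha, Uqcrfs1 and Uqcrh were called in every alternative. Cox7a1 passed the filter on low counts through its epithelial-like sums alone, so its calls between wild-type classes, here and below, are a description.

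Against macrophage-like cells 23 of 84 members were higher and 0 lower, with 22.8% of all genes higher and 20.5% lower. The share of members called higher was thus close to that of all genes. The medians were 0.45 for members and 0.14 for all genes. This contrast shares its epithelial sums with the one before. Complex III had 5 of 8 members higher, complex IV 3 of 14, the accessory subunits 7 of 29 and the core 2 of 7, and the other calls lay in the remaining groups. Ndufa6, an accessory subunit, stood at 497, 599 and 719.5 CPM in epithelial-like against 240.0, 291 and 239 in macrophage-like cells (1.27 ± 0.27, adjusted p = 0.0004, edgeR). Ndufv1, the core subunit that binds NADH, stood at 117, 122 and 128 against 64.4, 48.3 and 63.95 CPM (1.16 ± 0.27, adjusted p = 0.00088, edgeR). Neither gene overlapped between the classes. Leaving out wild-type library 1, 2 or 3 gave 12, 10 and 6 calls, and Cox7a1, Ndufa6, Ndufv1 and Uqcrh were called in every alternative.

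Among the other 6 tested classes macrophage-like cells had the highest member median. In the same contrast against the mean of the other classes, 15 members were called there (33.8% of all genes were, in either direction). Of these 14 were higher (20.9% of all genes were) and 1, the assembly factor Ndufaf7, was lower. The share of members called higher was thus no larger than that of all genes, and the medians were 0.27 for members and 0.04 for all genes. Cox5a, a matrix-side subunit of complex IV, stood at 786, 775 and 589 CPM, above its 516, 446 and 447 in epithelial-like cells (1.28 ± 0.22 against the mean of the other classes, adjusted p = 4.6e-05, edgeR). Each macrophage-like library lay above the epithelial-like ones. Leaving out wild-type library 1, 2 or 3 gave 9, 3 and 7 higher and 0 lower members, and Cox5a and Cox7a1 were called each time.

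Neutrophil-like cells had the lowest member median of the 7, with 34 members lower and 0 higher (24.2% of all genes were lower) and medians of -0.57 for members and -0.31 for all genes. The complex I core had the lowest median of the groups: 5 of 7 were lower, with a median of -1.06. Ndufa5 stood at 21.2, 113 and 45.2 CPM (15, 3 and 3 UMIs) against 352, 423 and 404 in epithelial-like cells (-2.63 ± 0.33 against the mean of the other classes, adjusted p = 4.9e-07, edgeR). Ndufc2 stood at 22.7, 37.8 and 45.2 CPM (16, 1 and 3 UMIs) against 212, 209.9 and 166 (-2.45 ± 0.38, adjusted p = 9.7e-06, edgeR). Both genes encode accessory subunits of complex I, and neither overlapped between these classes. Complex IV had 3 of 14 members lower, and Cox8a, at 1338, 1248 and 813 CPM, reached the levels of macrophage-like cells (1132, 1179 and 1009.7). Wild-type libraries 2 and 3 held 25 and 29 of these cells. Leaving out library 1, 2 or 3 gave 7, 18 and 30 lower members, and Ndufa5, Ndufab1, Ndufc2, Ndufv1 and Uqcrc2 were called each time. In the same contrast 72 of 84 cytosolic ribosomal protein genes were lower and 12 of 15 glycolysis genes higher (median 1.599; 20.4% of all genes were higher).

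In the remaining classes few members were called. Mesothelial-like cells had 4 higher (18.8% of all genes were): Cox6b2, Ndufa9, Ndufa4 and Ndufa1. Fibroblast-like cells had 1 higher, Cox6b2 (18.5% of all genes were). Cox6b2 passed the filter on low counts through its mesothelial-like sums alone, so its calls in both classes are a description. Blood endothelial-like cells had Ndufa8 higher (0.74 ± 0.23, adjusted p = 0.033, edgeR; 11.2% of all genes were higher) and Ndufv3 (-0.94) and Cox7a1, at 0 UMIs, lower (2.78% of all genes were lower). In lymphatic endothelial-like cells Ndufa12 (-0.94), Cox8a (-0.93), Cox7b (-0.85) and Atp5l (-0.78) were lower (4.18% of all genes were). The medians over members were 0.01, -0.01, -0.22 and -0.27 in that order of classes. These calls were not stable: leaving out wild-type library 1, 2 or 3 gave 1, 2 and 1 in mesothelial-like cells, 0 each time in fibroblast-like cells, 1, 1 and 0 in blood endothelial-like cells, and 3, 0 and 1 in lymphatic endothelial-like cells.

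**Figure D2:**
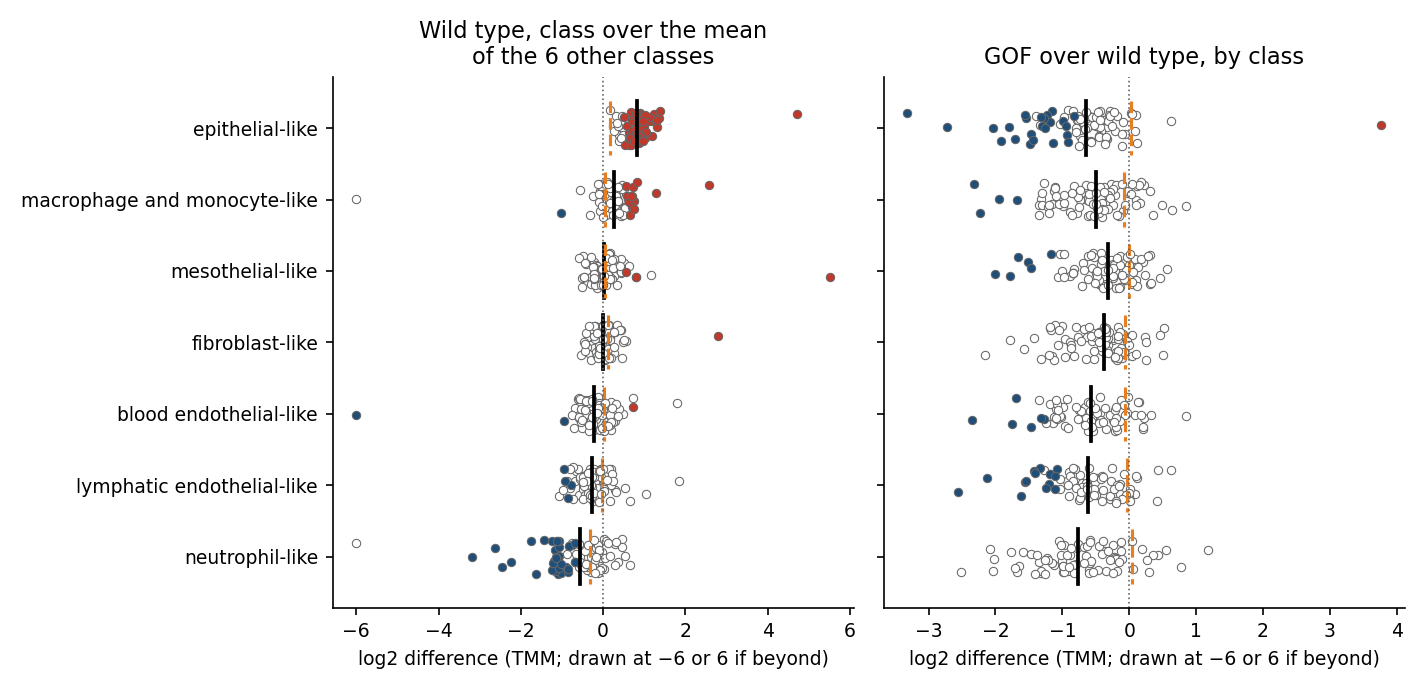
Log2 differences (x axis) of the tested members in each of 7 classes (rows): left, the class against the mean of the 6 others in wild type, right, GOF against wild type. Each point is a gene (red called higher, blue called lower, white not called), the black bar the median of members and the orange bar that of all genes tested; values beyond 6 are drawn at the edge. On the left the members' median falls from 0.82 in epithelial-like to -0.57 in neutrophil-like cells; on the right it is below 0 in all 7 classes.

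Several isoform genes were found mainly in 1 or 2 classes. Cox7a1, the heart and skeletal muscle form of subunit 7a (chr7:30184144-30186078, plus strand, GRCm38), was detected in epithelial-like cells at 63.3, 114 and 71.2 CPM. In fibroblast-like cells it stood at 2.52, 7.49 and 5.27 CPM (1, 8 and 2 UMIs), and in blood endothelial-like cells at 0 UMIs in each wild-type library. The log2 difference from fibroblast-like cells was 3.95 ± 0.40 (adjusted p = 1.8e-08, edgeR), and from macrophage-like cells 1.85 ± 0.32 (adjusted p = 3.3e-05, edgeR). Both calls are a description, since Cox7a1 passed the filter on low counts through its epithelial-like sums alone. Macrophage-like cells were second, at 22.6, 25.9 and 23.6 CPM, which is 35.7%, 22.7% and 33.1% of the epithelial-like level. The summed epithelial markers there came to 1.52%, 2.48% and 3.63% of theirs, but the gate itself holds these markers low. Where the macrophage-like UMIs of Cox7a1 came from was not tested. Its counterpart Cox7a2 was present in all these classes: 675, 653 and 626 CPM in epithelial-like, 320 to 426 in fibroblast-like and 505 to 625 in macrophage-like cells. Cox7a1 was thus the minor form in epithelial-like cells. Cox7a2l, the third member, which takes part in supercomplexes, stood at 239, 239 and 298 CPM there.

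Cox4i2 and Ndufa4l2 marked the smooth muscle- and pericyte-like cells, which were described only, since wild-type library 1 held 8 of them. Cox4i2, the form of subunit 4 known from lung and from oxygen-sensing cells, stood there at 226, 77.9 and 72.9 CPM (8, 9 and 12 UMIs). In epithelial-like cells the same libraries had 13, 2 and 0 UMIs, in macrophage- and mesothelial-like cells 0. Ndufa4l2, known as a target of hypoxia signalling, stood at 113, 182 and 72.9 CPM (4, 21 and 12 UMIs), and was otherwise seen mainly in the fibroblast-like cells of library 2 (31 UMIs). The common forms were broadly present: Ndufa4 stood at 1185, 1272 and 1276 CPM in the smooth muscle- and pericyte-like and 1109.7, 1038 and 582 in the epithelial-like cells.

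Cox6b2, known as the testis form of subunit 6b, marked mesothelial-like cells at 45.7, 38.9 and 68.0 CPM (40, 11 and 9 UMIs). Fibroblast-like cells followed at 15.1, 5.62 and 10.5 CPM and epithelial-like cells at 1.48, 2.60 and 2.70; macrophage- and neutrophil-like cells had 0 UMIs in wild type. It was also the only member lower in epithelial- than in fibroblast-like cells (-2.03, adjusted p = 0.0099, edgeR), from 6, 6 and 4 fibroblast-like UMIs. Since Cox6b2 passed the filter on low counts through its mesothelial-like sums alone, that call too is a description. Cox6b1 stood at 729, 727 and 647 CPM in epithelial-like cells. Cox6a2, a heart and muscle form, was close to absent from epithelial-like cells (2, 1 and 0 UMIs) and stood at 1.74, 21.2 and 20.2 CPM in macrophage-like cells (1, 18 and 6 UMIs), where its libraries were far apart. In the few dendritic-like cells the GOF library had 37 UMIs of it and the wild-type libraries 0 and 3, with no such cell in the third. Cox7b2, Cox8b and Cox8c had at most 3 UMIs in the epithelial-like cells of a wild-type library. The c subunit genes Atp5g1, Atp5g2 and Atp5g3, which encode the same mature protein, stood at 724 ± 120.04, 817 ± 91.7 and 355 ± 20.3 CPM (SD, n = 3) there.

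**Figure D3:**
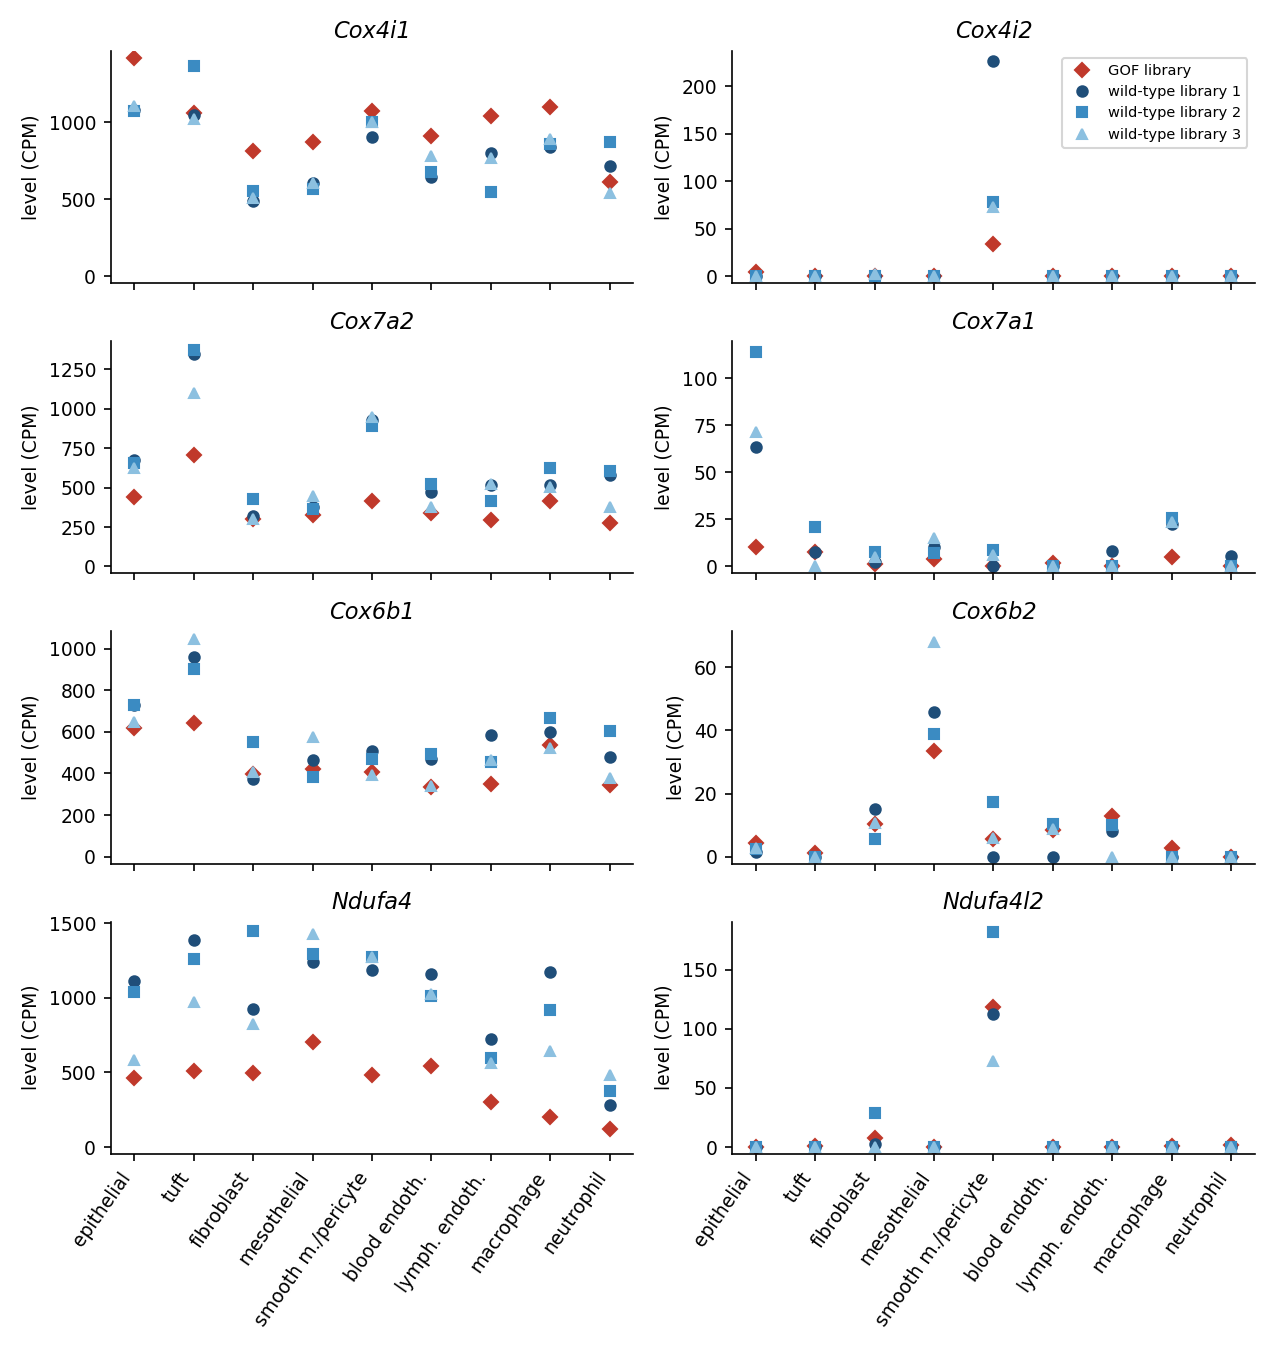
Levels in CPM (y axes, linear) of common isoforms (left column) and their counterparts (right column) in 9 classes (x axis); each symbol is 1 library. Cox7a1 is highest in wild-type epithelial-like cells (63.3 to 114 CPM), Cox6b2 in mesothelial-like cells (38.9 to 68.0), and Cox4i2 and Ndufa4l2 in smooth muscle- and pericyte-like cells (72.9 CPM and more).

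In GOF epithelial-like cells, of 89 tested members, 24 were lower and 1, Cox4i2, was higher than in wild type (edgeR, adjusted p under 0.05 over 15929 genes); of all genes, 4.0% were lower and 12.2% higher. The median log2 difference was -0.65 for members and 0.03 for all genes, 82 members lay below 0 and 49 had an unadjusted p under 0.05. Among all called genes 75.3% were higher with the TMM scaling used here, 90.8% with library totals, 91.7% with TMM from genes of at most 5 kb of intron, and 61.5% with DESeq2. Library totals moved the median of all genes to 0.38 and that of members to -0.29, with 64 members below 0. The spread comes from the wild-type libraries alone, and the lone GOF library was assumed to vary like them. In raw CPM the GOF library lay below all 3 wild-type libraries for 56 members and above them for 14. The shares of all genes are not given beside these counts, the 82, 49 and 64 above, or the counts by unadjusted p below. These numbers therefore describe the members only.

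The counts depended on the libraries used. Without wild-type library 1, 6 members were called, without library 2 10, and without library 3 36 (1 higher and 35 lower); DESeq2 called 47. Atp5k, Cox7a1, Ndufa1, Ndufa3, Ndufaf8 and Ndufc1 were called in every alternative run. The labels do not tie the wild-type libraries to different animals, so the p-values speak only of how far these libraries lie apart, and that distance may be technical.

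Cox7a1 was the member farthest below wild type. It stood at 10.5 CPM in GOF (777 UMIs) and 63.3, 114 and 71.2 in wild type, a log2 difference of -3.32 ± 0.41 (adjusted p = 0.0078, edgeR). Atp5k, subunit e of the membrane part of complex V (chr5:108433244-108434448, minus strand, GRCm38), stood at 139.8 against 744, 735 and 685 CPM (-2.72 ± 0.25, adjusted p = 0.0039, edgeR). In both, GOF lay far below the lowest wild-type library. The wild-type SD of Atp5k was 31.7 CPM.

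Complex I contributed 8 of its 29 tested accessory subunits, 0 of 7 core subunits and 1 of 8 assembly factors to the lower calls. Ndufa3 stood at 159 against 530.1, 575 and 430.2 CPM (-2.03 ± 0.26, adjusted p = 0.0084, edgeR). Ndufc1 stood at 179.6 against 467, 600.0 and 534 CPM (-1.92 ± 0.26, adjusted p = 0.0099, edgeR). Ndufa1 stood at 112 against 329, 302 and 285 CPM (-1.80 ± 0.22, adjusted p = 0.0076, edgeR). All 3 are small supernumerary proteins of complex I, and in none did GOF overlap wild type. The assembly factor Ndufaf8 stood at 67.6 against 158, 153 and 135 CPM (-1.49 ± 0.20, adjusted p = 0.0094, edgeR). Ndufa7, Ndufa5, Ndufv3, Ndufb4 and Ndufa2 were also lower (-1.33 to -0.95). The core subunits had a median of -0.57, and 4 of the 7 had an unadjusted p under 0.05.

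Complex III had the largest share of lower calls, 5 of 8, with a median of -1.04. Uqcr10 stood at 354 against 851, 818 and 781 CPM (-1.56 ± 0.24, adjusted p = 0.013, edgeR) and Uqcr11 at 349 against 936, 832 and 637 (-1.55 ± 0.30, adjusted p = 0.025, edgeR). Both are small membrane subunits, and both lay below all wild-type libraries. Without wild-type library 1 their adjusted p became 0.051 and 0.063. Uqcrb (-1.24), Uqcrq (-1.16) and the core protein Uqcrc1 (-0.92) were also lower. Uqcrh, Uqcrfs1 and Uqcrc2 were not called, at -0.65, -0.62 and -0.32.

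Complex IV had 4 of 15 tested members lower, with a median of -0.74. Besides Cox7a1 these were Cox7c, at 628 against 1566, 1684 and 1554 CPM (-1.70 ± 0.26, adjusted p = 0.013, edgeR), Cox6c (-1.14) and Cox7a2 (-0.92). GOF lay below all wild-type libraries in Cox7c, and its adjusted p without wild-type library 1 was 0.052. The common isoforms did not move as one: Cox4i1 stood at 1419.5 against 1081, 1077 and 1104 CPM, higher in raw CPM than in any wild-type library but at 0.03 after TMM (adjusted p = 0.94, edgeR). Cox7a2l stood at 359.6 against 239, 239 and 298 CPM (0.12, adjusted p = 0.76, edgeR). Ndufa4 stood at 459 against 1109.7, 1038 and 582 CPM (-1.33, adjusted p = 0.078, edgeR), and was called without wild-type library 3 (adjusted p = 0.005).

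In complex V, 4 of 12 membrane and stalk subunits were lower (median -0.84) and 1 of 5 F1 subunits (median -0.35). Atp5e stood at 484 against 1281, 991 and 862 CPM (-1.46 ± 0.31, adjusted p = 0.035, edgeR); its adjusted p was 0.062 and 0.056 without wild-type library 1 or 2. The other lower members were 2010107E04Rik (-1.43), Usmg5 (-1.26) and Atp5l (-0.99), all small membrane proteins. Atp5b, the catalytic beta subunit, was not called, at 632 against 540.2, 439.6 and 419.7 CPM (0.09, adjusted p = 0.82, edgeR). Its raw GOF level was above all wild-type libraries.

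Complex II had 1 call. Sdhd, a membrane anchor, stood at 84.8 against 127, 124 and 105 CPM (-0.83 ± 0.19, adjusted p = 0.041, edgeR). Sdhb stood at 153 against 205, 324 and 407 CPM (-1.39, adjusted p = 0.085, edgeR), and here the wild-type libraries were themselves wide apart. Sdha stood at 130.5 against 149, 144 and 122 CPM (-0.43, adjusted p = 0.17, edgeR) and Sdhc at 71.3 against 68.8, 64.4 and 63.1 (-0.23, adjusted p = 0.39, edgeR). In raw CPM GOF lay among the wild-type libraries for Sdha and above them for Sdhc.

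**Figure D4:**
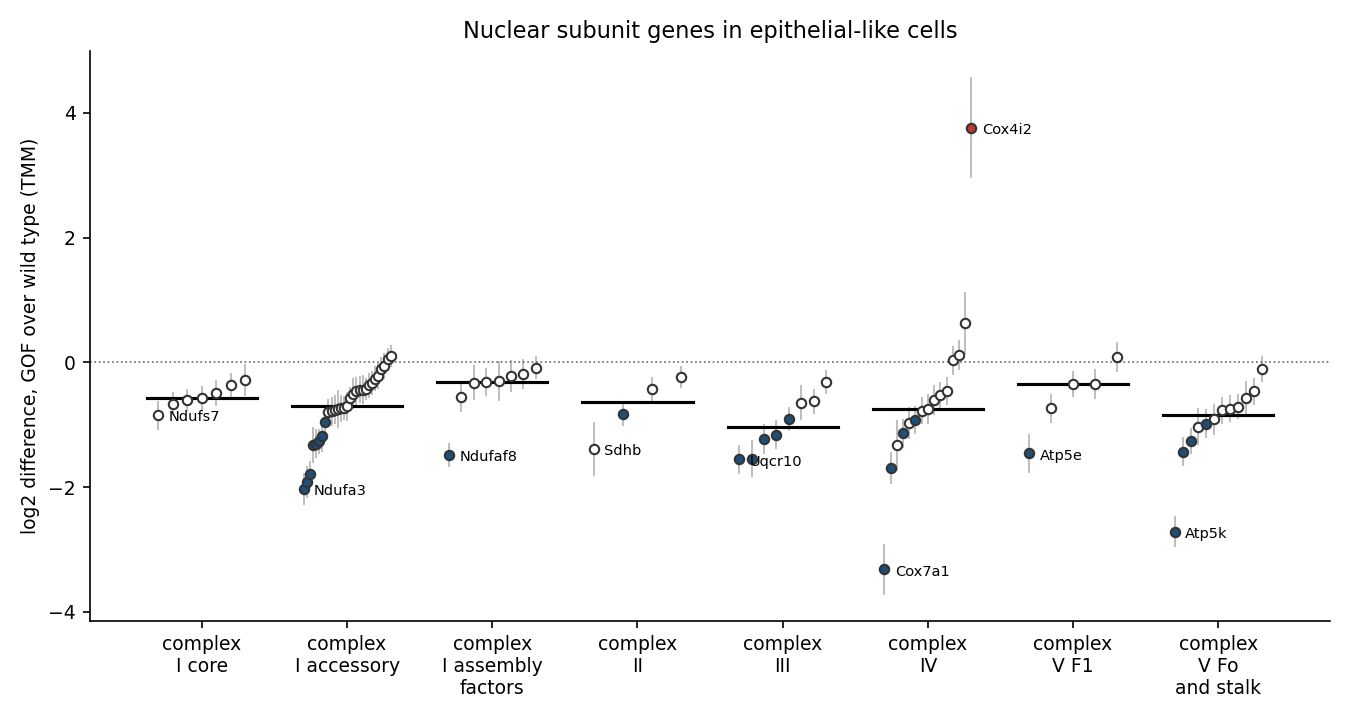
Log2 difference of GOF over wild type in epithelial-like cells (y axis) for 88 of the 89 tested members (Atp5s is not drawn), by complex (x axis); bars are standard errors, blue points were called lower, red higher, white not called, and black lines are group medians. Complex III has the lowest median (-1.04); Cox7a1 (-3.32), Atp5k (-2.72) and Cox4i2 (3.77) lie farthest from 0.

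Cox4i2 was the only member called higher in GOF epithelial-like cells (chr2:152754173-152765037, plus strand, GRCm38). It passed the filter on low counts through the GOF library alone, so its call is a description of that library. It stood at 3.97 CPM (293 UMIs) against 0.350, 0.162 and 0 CPM (13, 2 and 0 UMIs), a log2 difference of 3.77 ± 0.82 (adjusted p = 0.035, edgeR). Against the pooled wild-type UMIs the ratio was 14.9 (95% interval 8.87 to 26.9, for counting error only). The UMIs came from 269 of 5465 cells (4.92%, exact 95% binomial interval 4.36% to 5.53%), at most 3 in a cell, with a median depth of 8209 UMIs. In GOF macrophage-like cells, which had a median depth of 8123.5, 3 of 950 cells held a Cox4i2 UMI (0.316%).

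The level remained low beside the smooth muscle- and pericyte-like cells of the same library, at 34.3 CPM. The summed markers of that class stood at 42.7 CPM in GOF epithelial-like cells, against 3.12, 14.4 and 30.0 in wild type. In GOF this was 0.110% of the level in that class, while Cox4i2 reached 11.6%. The gate itself holds these markers low in epithelial-like cells, so the shares cannot be compared as measures of carry-over. Where the Cox4i2 UMIs came from was not tested. The call was lost without wild-type library 1 or 2 (adjusted p = 0.069 and 0.070, edgeR).

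Measured beside these differences, libraries and genes differed in other ways too, and the part of those in the results was not tested. Epithelial-like cells of GOF had 3.19% of their UMIs in the 13 mitochondrially encoded subunits, against 11.5%, 12.7% and 14.8% in wild type; 12 of the 13 genes were lower (median -2.35). The ratio of mitochondrially encoded to nuclear UMIs was 1.22 against 3.14, 3.43 and 4.19. Median depth was 8209 UMIs per cell against 7622.5, 3614 and 2413.5. The GOF matrix was written by another version of the counting software with another gene reference than the wild-type matrices, which cannot be told apart from the genotype.

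The lower members were mostly short genes. Of 38 members with a transcript of at most 700 bases 20 were lower (median -0.98), and of 51 longer ones 4 were (median -0.50). Over all genes the short ones also lay lower: 78 of 476 were called lower and 34 higher (median -0.44), against a median of 0.03 for the 13814 longer ones. By total intron length the members split less: 17 of 41 with at most 5 kb were lower (median -0.77) and 7 of 48 with more (median -0.55). All genes split at the same limit had medians of -0.36 and 0.15. The sources used here do not give whether intronic reads were counted. Promoter motifs did not part the members: the medians were -0.74 with and -0.64 without GCGCANGCG, and -0.74 with and -0.62 without CCGGAAG.

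**Figure D5:**
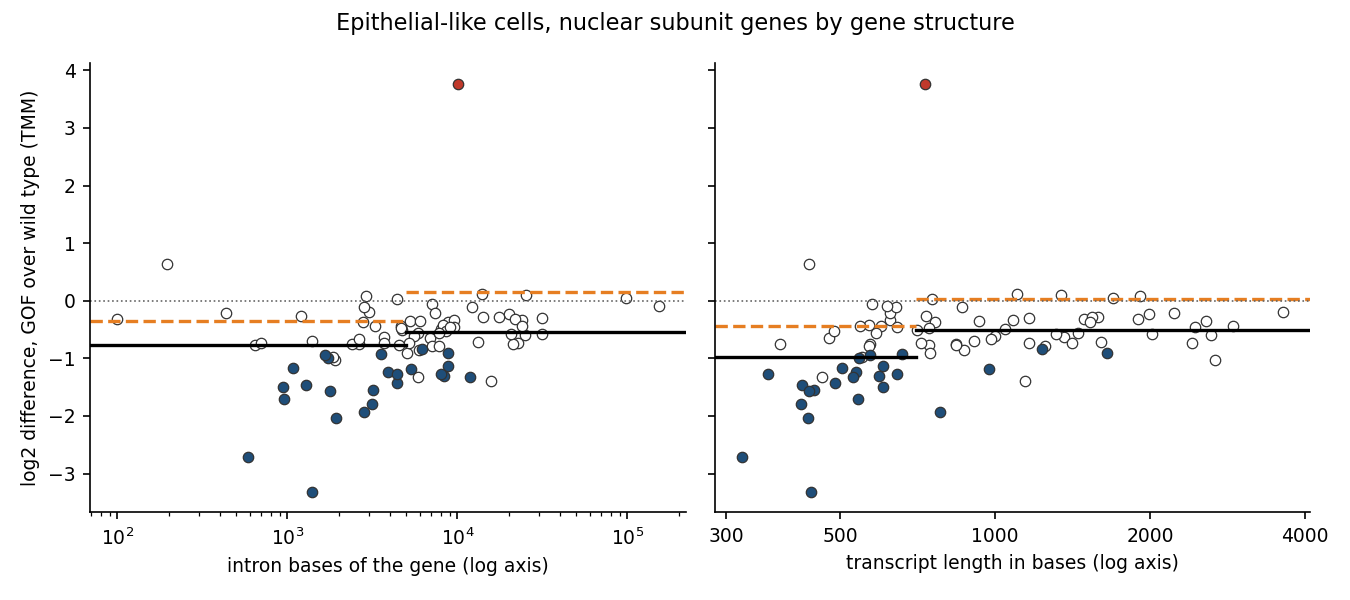
Log2 difference of GOF over wild type in epithelial-like cells (y axis) of tested members against total intron length (left) and transcript length (right), both on log axes in bases; blue points were called lower, red higher, white not called. Lines are medians of members (black) and of all genes tested (orange) on each side of 5000 and 700 bases; members of at most 700 bases have a median of -0.98 and all such genes -0.44.

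In the other 6 classes 31 calls were made over the 6 fits, all lower in GOF. Of 74 members tested in all 7 classes, 49 were below 0 in each, and Ndufs4, an accessory subunit, was above 0 in each. These counts depend on the scaling: they were 40 below and 4 above with library totals, and 28 below and 10 above with TMM from genes of at most 5 kb of intron. With the latter the member medians were -0.26 in epithelial-like, -0.20 in neutrophil-like, -0.19 in lymphatic endothelial-like, -0.18 in blood endothelial-like, -0.10 in macrophage-like, -0.09 in mesothelial-like and -0.01 in fibroblast-like cells, and the medians of all genes moved up to between 0.23 and 0.63. Ndufs4 was above 0 in each class under all these scalings. The classes come from the same 4 libraries, so the count of 49 is no repeat of the epithelial result. The share of all genes below 0 in all 7 classes is not given here. Over all genes, those with a transcript of at most 700 bases had medians below 0 in each class, from -0.67 to -0.32. Atp5k was called lower in 5 of the 7: its log2 differences were -2.72 in epithelial-like, -2.56 in lymphatic endothelial-like, -2.34 in blood endothelial-like, -2.01 in mesothelial-like and -1.95 in macrophage-like cells, with adjusted p of 0.0039, 2e-07, 0.00025, 0.00024 and 0.022 (edgeR). In fibroblast-like and neutrophil-like cells it stood at -2.16 and -2.52 (adjusted p = 0.084 and 0.28, edgeR). Its GOF levels, 67.2 to 139.8 CPM, were below every wild-type level of the same class in all 7. The macrophage-like call rested on wild-type library 3 (adjusted p = 0.055 without it).

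Lymphatic endothelial-like cells had 15 of 74 members lower (5.98% of all genes were) with a median of -0.61. Ndufa1 stood at 88.5 against 397, 338 and 327 CPM (-2.13 ± 0.44, adjusted p = 2.4e-05, edgeR), with no overlap. Uqcr11 (-1.61), Ndufc1 (-1.56), Sdhb (-1.54), Ndufa3 (-1.42) and Ndufa6 (-1.41) followed. Without wild-type library 2 it was 5 members, and with DESeq2 4. Blood endothelial-like cells had 6 of 74 lower (4.48% of all genes were; median -0.57): Atp5k, Ndufa3, Ndufc1, Cox7c, Sdhb and Atp5e. Without wild-type library 1 it was 14 members, and without library 2 4.

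Mesothelial-like cells had 6 of 85 lower (4.27% of all genes were; median -0.32): Atp5k, Ndufa3 (-1.78), Ndufa1 (-1.66), Ndufc1 (-1.51), Ndufaf8 (-1.47) and Cox7c (-1.16); it was 4 without wild-type library 2. Macrophage-like cells had 4 of 86 lower (2.01% of all genes were; median -0.50). Of these, Ndufa4, long counted with complex I and now placed in complex IV, stood at 202 against 1172, 915 and 646 CPM (-2.23 ± 0.57, adjusted p = 0.02, edgeR). Cox7a1 stood at 4.95 against 22.6, 25.9 and 23.6 CPM (-2.33 ± 0.64, adjusted p = 0.031, edgeR), as 41 GOF UMIs and 13, 22 and 7. In this fit it passed the filter on low counts through the wild-type libraries alone, so its call is a description. GOF lay below all wild-type libraries in both genes. Without wild-type library 3, 1 of the 4 calls was left; for Cox7a1 the adjusted p was 0.23 without library 2, 0.063 without library 3 and 0.084 with DESeq2.

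Fibroblast-like cells had 0 of 86 members called (0.377% of all genes were lower; median -0.37), 5 with an unadjusted p under 0.05 and 1 with DESeq2. Neutrophil-like cells had 0 of 79 (0.718% of all genes were lower; median -0.76), 1 with an unadjusted p under 0.05 and 0 with DESeq2. The wild-type sums came from 583, 25 and 29 neutrophil-like cells. The median moved both ways: it was -1.11 without wild-type library 1 (51 members tested) and -0.88 without library 2 (81 members). It was -0.41 without library 3 (81 members) and -0.33 without the filter on low counts (88 members).

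An interaction term, with libraries as blocks, asked whether the GOF difference was the same in epithelial- and macrophage-like cells. Of 90 members 0 were called (edgeR), 0 had an unadjusted p under 0.05 and DESeq2 called 0, while 3.0% of all 14890 genes were called. The median of the members was -0.26, and 0.04 without TMM, so the direction depends on the scaling. The lack of a call does not show that the effects were alike.

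In GOF epithelial-like cells the genes around the respiratory chain were read beside the 12.2% of all genes called higher and the 4.0% called lower. Among partners that the symbol rule does not reach, Cycs, which encodes cytochrome c, was lower (-1.51 ± 0.25, adjusted p = 0.017, edgeR), as was Atpif1, the inhibitor of complex V (-1.29 ± 0.25, adjusted p = 0.025, edgeR). The third, Cyc1, was not called. Of 34 assembly factors outside the rule 2 were higher and 4 lower (median -0.35), with Coa3 (-1.36) and Uqcc2 (-1.24) lower and Cox16 higher (2.16). Of 16 citric acid cycle and pyruvate genes 1, Sucla2 (-1.02), was lower (median -0.42), and of 9 carriers and pores 0 were called (2 had an unadjusted p under 0.05; median -0.41). Glycolysis had 3 of 16 lower (median -0.61), namely Eno1 (-2.18), Hk2 (-2.10) and Aldoa (-1.34). Of 13 regulators Nrf1 (1.20) and Pprc1 (1.03), known regulators of nuclear genes for mitochondrial proteins, were higher (median -0.19). Of 8 genes of defence against reactive oxygen Cat, catalase, was lower (-1.50; median -0.45).

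Mitochondrial ribosomal protein genes had 1 of 78 higher and 6 lower (median -0.39), and cytosolic ones 2 of 83 higher and 7 lower (median 0.14). The members' median of -0.65 was thus lower than that of each of these lists, apart from the mitochondrially encoded subunits (-2.35) and the 3 partners (-1.29).

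Between wild-type epithelial- and fibroblast-like cells 16.0% of all genes were called higher and 19.2% lower, and the same lists had the following calls. Citric acid cycle and pyruvate genes were higher in 7 of 16, led by Suclg2 (1.34), Ogdh (1.14) and Suclg1 (1.07), and lower in 0. Carriers were higher in 3 and lower in 1 of 8: of the ADP/ATP carriers, Slc25a5 was higher (1.499) and Slc25a4, the heart and muscle form, lower (-3.14). Glycolysis genes were higher in 0 and lower in 3 of 15, namely Ldhb (-2.31), Hk1 (-1.44) and Pkm (-1.01). Mitochondrially encoded subunits were higher in 6 of 13, and Atpif1 (1.41), Cycs (1.03) and Cyc1 (0.92) all were. Assembly factors outside the rule were higher in 4 of 16, mitochondrial ribosomal protein genes in 10 of 68, cytosolic ones in 6 of 84, oxygen defence genes in 2 of 8 (with 1 lower) and regulators in 0 of 4 tested. The lower glycolysis genes and the higher ribosomal protein genes of both kinds were thus near or below the shares of all genes. Against macrophage-like cells 8 of 15 glycolysis genes were lower (median -1.18; 20.5% of all genes were lower), led by Pkm and Eno1 (both -2.21) and Gapdh (-1.77), and 11 of 13 mitochondrially encoded subunits were higher, beside the 22.8% of all genes given above.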

How the data were processed

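The authors deposited 1 filtered feature-barcode matrix of UMI counts per library; per the file headers Cell Ranger 7.0.0 wrote the GOF matrix (32285 genes) and 3.0.2 the wild-type matrices (31053 genes), while the submitters' processing notes name Cell Ranger 7.1 and mm10. The release of the gene reference and the treatment of introns: not given in the sources used here.

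Counts were restricted to the 30406 shared genes. Cells with at least 500 genes and at most 25% mitochondrial UMIs were gated by fixed marker lists: a score of at least 0.3 for one class, at most 0.6 of it for any other class, and at least 3 markers. Cells in which another class scored above 0.6 of the top score were thereby left out. Exempt from this limit were the epithelial score of tuft-like cells and the blood endothelial score of lymphatic endothelial-like cells. Scrublet called 0 cells in wild-type library 1, so its calls were not used and its top scores served as an alternative. UMIs were summed per library and class (Python 3.11.15, pandas 2.3.3, scanpy 1.11.5) and tested with edgeR 4.0.16 (R 4.3.3): TMM, filterByExpr, quasi-likelihood test, Benjamini-Hochberg adjusted p under 0.05 over all genes tested. GOF was compared with wild type in each class, with 2 residual degrees of freedom; wild-type classes were compared in one model with the library as a block, since all classes come from the same libraries. CPM values are unscaled. Gene structure came from the GENCODE annotation of GRCm38. The procedure was tested on counts simulated from a mean profile shared by all libraries. These hold none of the differences in software and gene reference between the real libraries, so that test does not speak to them. Alternatives were library totals, DESeq2 size factors, TMM from genes with at most 5 kb of intron, no filter on low counts, DESeq2 1.42.0, other cell limits, a stricter gate, top Scrublet scores left out, no replicate block, and each wild-type library left out.

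Named were, per comparison, up to 10 called members per direction with the largest log2 difference and at least 20 CPM in the higher group, all isoform genes, the 3 highest and lowest per complex, the Sdh genes, and up to 3 called genes of each other list. The lists were partners outside the rule, assembly factors, citric acid cycle, carriers and pores, regulators, glycolysis, reactive oxygen defence, mitochondrially encoded subunits, and mitochondrial and cytosolic ribosomal proteins. Cox4i2 is an isoform gene, and other members given by value were named after their values were seen. Members and lists were chosen with earlier results of these data known. No paired test of GOF against wild type exists, as the GOF library has no counterpart. Intervals cover counting error only.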

Additional observations from a re-analysis of the deposited data

Results flagged for a closer look

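Ndufb1-ps, whose symbol starts with a prefix of the rule but whose ending names it a pseudogene, held 16544 UMIs in the GOF library. It is listed only in the gene reference of that library, so the wild-type libraries give no value to compare, and it enters no comparison above.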

How the results depend on the processing

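In GOF epithelial-like cells 25 members were called; 15 were with library totals, 15 with TMM from genes of at most 5 kb of intron, 47 with DESeq2, and 6 to 36 when each wild-type library was left out in turn. In the other 6 classes together 31 were called, against 17 with the short-intron TMM (16 lower and 1 higher), 19 with DESeq2 and 17 to 44 with a library left out. Between epithelial- and fibroblast-like cells 47 were called, and 8 to 33 with a library left out. Between epithelial- and macrophage-like cells 23 were called, 10 without the filter on low counts, 40 with DESeq2 and 6 to 12 with a library left out. Over the 7 classes against the others 130 calls became 80 to 85. The interaction had 0 calls in all alternatives. Over all genes, 2576 calls in GOF epithelial-like cells became 859 to 4136 with a library left out. Of 1531 values of single genes under an alternative, 1319 kept direction and side of the threshold, 200 lost the call, 12 gained one and 0 reversed. The cause of these shifts was not tested, beyond fewer libraries in the fit.

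Without the replicate block (the library) the wild-type counts were 37 between epithelial- and fibroblast-like cells, 18 between epithelial- and macrophage-like cells and 120 over the 7 classes, and 0 for the interaction. No paired analysis was possible because, for GOF against wild type, the label of the single GOF library gives no replicate number; it was numbered 1 in accession order only.

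With at least 1000 genes per cell neutrophil-like cells could not be fitted. 1 GOF library, wild-type classes of 25 to 45 cells and wild-type depths that differ several-fold limit what can be called, and a member not called may still differ.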

Other observations

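Some genes of the neighbouring lists had GOF levels far outside the wild-type range in several classes at once. Mrpl53, a mitochondrial ribosomal protein gene, stood at 83.8 CPM in GOF epithelial-like cells against 1.02, 2.52 and 4.20 in wild type, and was called higher there (log2 4.86), in fibroblast-like (4.15) and in macrophage-like cells (3.92; edgeR). Rpl13a stood at 1759.8 against 108, 172 and 243 CPM and was called higher in the same classes (2.97, 3.20 and 3.10), and Cox16, an assembly factor of complex IV, at 177 against 15.3, 31.1 and 46.9 CPM (2.16, 2.35 and 1.37). Rpl38 went the other way in epithelial-like cells, at 1299 against 4141, 5287 and 6676 CPM (-2.41).

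Of the 94 members, Atp5o, Ndufb2, Ndufb8 and Ndufb9 overlap, on the same strand, a gene listed only in the wild-type reference; all 4 were tested and not called in GOF epithelial-like cells (-0.77, -0.73, -0.74 and -0.50).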
